A study of Cavia porcellus with 12 samples.

Results

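The miR-378 family was followed in small RNA-seq of guinea pig ventricular cardiomyocytes exposed to doxorubicin (DOX), an anthracycline used against cancer. Members were all table entries whose precursor name was hsa-mir-378 followed by a letter, where an entry is 1 sequence under 1 human miRNA hairpin (precursor). This took 44 of the 5095 entries in 3 deposited tables, and they held 28 distinct sequences under 8 precursors. Of these 44 entries, 5 came from the 5p arm of hsa-mir-378a, and 39 had the letters of its 3p arm, some with changed bases. The latter are called 3p-like, a name for their letters and not for an arm of their own hairpin. By the start that opens each entry name, those of mir-378c begin at base 10 to 13, near the 5′ end of the hairpin, and those of mir-378a at 41 to 44. The term 3p alone is used for mir-378a.

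The cells were isolated from hearts of adult female Hartley guinea pigs by Langendorff perfusion and enzymes, and were kept at room temperature in 10 µM DOX or in the vehicle DMSO. The labels give 4 groups, DMSO for 1 h, DOX for 1 h, DMSO for 22 h and DOX for 22 h, with 3 libraries each and 12 in all. They do not say whether the libraries of a group came from separate animals. Of the 3 tables, 1 sets DOX beside DMSO after 1 h, 1 does so after 22 h, and the last sets the longer DOX exposure beside the shorter.

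From each table the authors' mean of normalized reads over both of its sides was taken. Values for the sides stand among the columns of the authors' comparisons, which were not used. In the tables with DOX 22 h, every mean was a whole-number combination of the reads of 2 libraries, so these tables hold 1 library a side. Names of predicted miRNAs in both tables carry replicate number 1. The reads of the 3 libraries could be solved without ambiguity in 1216 of the 1323 entries that both tables share. The library common to both tables was taken as DOX 22 h, the only group that both pair, and every direction below rests on this. The directions were not checked against the deposited fold changes, which were not used. Higher and lower thus hold only under this assignment and the group names of the tables. The study lists a 19-nt mir-378c sequence, which starts at base 10 of the hairpin, as downregulated after 22 h of DOX. Under the assignment used here, it had 18 unscaled reads in DOX 22 h and 6 in DMSO 22 h. Its log2 ratio was 1.35 (95% interval 0.02 to 3.04). With the names of the 22 h libraries exchanged, this sequence would be lower with DOX. Such an exchange would also make the library common to both tables DMSO 22 h, against the group names of the DOX 22 h and DOX 1 h table. Every difference given below over DOX 1 h would then be one of DMSO 22 h over DOX 1 h. Whether the names are exchanged was not tested. The solved entries held 474736 reads in DOX 22 h, 440362 in DMSO 22 h and 623625 in DOX 1 h. The means at 22 h summed to 4776593 normalized reads, so most of the signal lay in the 107 entries with several solutions. Counts, medians and quartiles over all solved entries leave these 107 out. These differences have no replicate check, and their exact (Clopper-Pearson) 95% intervals cover counting error only. At 1 h no such solution was found, so only levels are given there.

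miR-378 is a metabolic miRNA that is abundant in heart and skeletal muscle. Its main hairpin, hsa-mir-378a, lies in an intron of PPARGC1B, the gene of PGC-1β, a coactivator of mitochondrial and fatty acid oxidation genes. The 3p arm is the form usually studied, and its known targets in cardiac cells include IGF1R and members of the MAPK pathway. The hairpins mir-378c to mir-378j are related copies elsewhere in the human genome, and the reads here were matched to human sequences.

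The sequences below carry the levels and differences described next. Capitals mark the seed letters that are present, where the seed is bases 2 to 8 of a miRNA, the stretch that pairs with targets. The motif searched was CTGGACT for 3p and TCCTGAC for 5p, and a sequence in which the motif or its end was not found at the start has no capitals.
mir-378a 3p, 20 nt: TGGACTtggagtcagaaggc
mir-378a 3p, 19 nt: TGGACTtggagtcagaagg
mir-378c, 18 nt: TGGACTtggagtcagaag
mir-378c, 19 nt: TGGACTtggagtcagaaga
mir-378a 3p and mir-378c, starting 2 nt earlier: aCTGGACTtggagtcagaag
mir-378a 5p, 20 nt: CCTGACtccaggtcctgtgt
mir-378g, 18 nt: tgggcttggagtcagaag
mir-378j, 19 nt: tggatttggagtcagaagg
Counted from 1 at the 5′ end of the 20-nt mir-378a sequence, the 19-nt mir-378c form differed by G19A, mir-378g by A4G and mir-378j by C5T. The changes of mir-378g and mir-378j thus fall within the seed letters, and that of mir-378c lies at the 3′ end. The rare mir-378f sequence differed by T12C.

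Most miR-378 sequences in the tables began at the second seed letter. The whole seed was present in 0.332% of the summed 3p-like means at 1 h, 0.264% at 22 h and 0.353% in the DOX 22 h and DOX 1 h table. In the 5p arm it was present in 0%. The same held for other families, since the motif GAGGTAG of let-7 and mir-98 and the motif GGAATGT of mir-1 were whole in 0% of their means at 22 h, and 100% began at the second letter. The missing 5′ bases are thus not particular to miR-378, and their origin was not tested.

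The miR-378 family was abundant in every table. Its summed means were 111876 of 5874566 normalized reads at 1 h, 91430 of 4776593 at 22 h and 118183 of 6005178 in the DOX 22 h and DOX 1 h table. These were 1.90%, 1.91% and 1.97% of the tables. Among precursor names, with numbered copies joined, mir-378a ranked 11 of 210 at 1 h, 10 of 195 at 22 h and 10 of 255 in the remaining table. The order was led in each table by mir-1, a muscle miRNA, with 20.6%, 20.9% and 22.2% of the means. It was followed by mir-143 with 18.98%, 20.6% and 19.5%. The tables were normalized separately, so shares and not means are set across them.

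The labelled cell type was checked against miRNA markers. The 7 cardiac muscle precursors (mir-1, mir-133a, mir-208a, mir-208b and mir-499a, with copies) were all present and summed to 33.5% of the means at 1 h, 35.1% at 22 h and 37.1% in the DOX 22 h and DOX 1 h table, with mir-1-2 the most abundant. Markers of other cells were present too. The endothelial mir-126 took 4.41%, 3.83% and 3.24%. The smooth muscle pair mir-143 and mir-145 took 19.4%, 21.0% and 19.8%, nearly all of it mir-143. The fibroblast list (mir-199a-1, mir-199a-2 and mir-214) took 0.266%, 0.201% and 0.197%. Red cell markers (mir-451a and mir-144) and leucocyte markers (mir-142 and mir-223) took at most 0.00727% and 0.00765%, and the liver marker mir-122 was at 0. In such bulk samples, fewer cells of a type and less RNA per cell cannot be told apart.

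Within the family, 2 forms of the mir-378a 3p arm held nearly all of the signal, and their shares were alike in the 3 tables. The 20-nt form had a mean of 66642 at 1 h, 54463 at 22 h and 71281 in the DOX 22 h and DOX 1 h table. The 19-nt form, which lacks the last base, had 37802, 30972 and 39156. Together they made up 93.4% of the family's means in each of the 3 tables, and the longer form exceeded the shorter by 1.76, 1.76 and 1.82 times. By rank among all entries, they stood at 17 and 28 at 1 h, 19 and 28 at 22 h, and 16 and 28 in the remaining table.

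The 5p arm of mir-378a was a minor product. Its summed means were 2915, 2379 and 3169 in the 3 tables, which is 2.61%, 2.60% and 2.68% of the family. The 3p entries of mir-378a itself summed to 104661, 85612.5 and 110673. All 3p-like sequences, summed over the precursors, exceeded the 5p arm by 37.4, 37.4 and 36.3 times. The 20-nt 5p form held most of the arm, with means of 2513, 2053 and 2738.

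The other precursors contributed little beside mir-378a. Entries of hsa-mir-378c, which ends differently from mir-378a at the 3′ side, summed to 3237, 2645 and 3251, or 2.89%, 2.89% and 2.75% of the family. Most of this was the 18-nt form, with means of 2521, 2081 and 2540. That form is also the start of both main mir-378a sequences, so its letters cannot tell mir-378c from mir-378a. The 19-nt mir-378c form with G19A, whose last base differs from mir-378a, had means of 471.2, 382.0 and 430.2. Entries of hsa-mir-378d-2 made up 0.556%, 0.502% and 0.542%, and those of mir-378d-1 0.394%, 0.354% and 0.356%. mir-378e was listed at 11.6 at 22 h and 10.1 in the DOX 22 h and DOX 1 h table. The members with changed seed letters were rare and stood in the latter table only, with a mean of 8.69 for mir-378g and a sum of 9.51 over 2 entries for mir-378j. The single mir-378f entry there had a mean of 1.13.

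**Figure D1:**
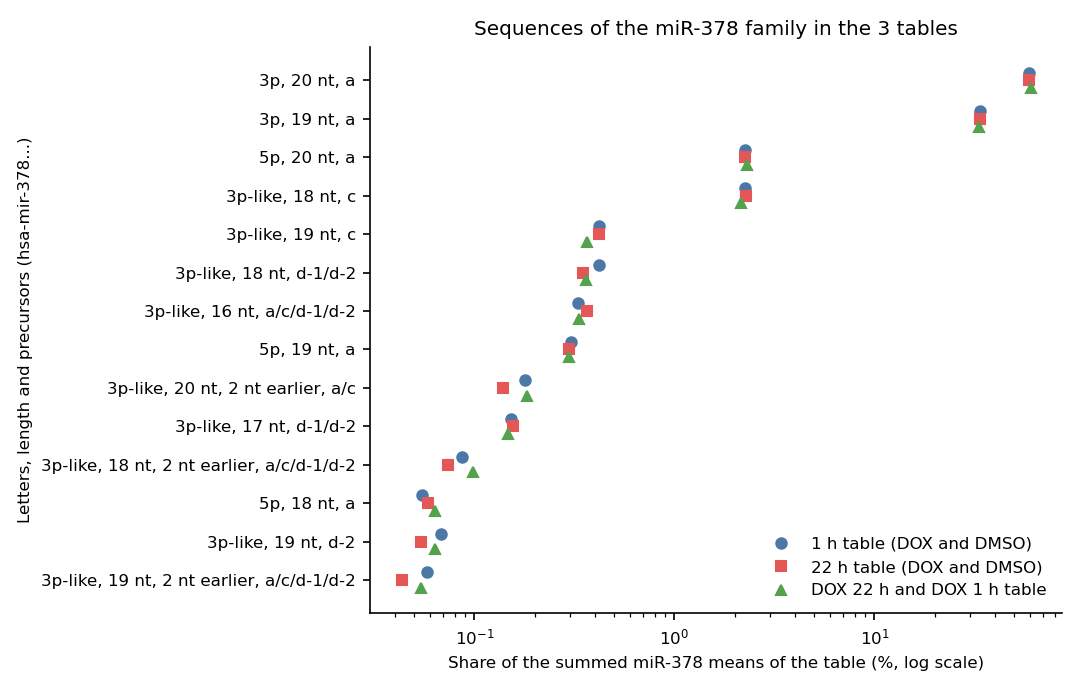
Share of each miR-378 sequence with a mean sum of 60 or more in the DOX 22 h and DOX 1 h table, in percent of the summed miR-378 means of each table (log axis), from the authors' means over both sides. Labels give 5p or 3p of mir-378a, or 3p-like by letters, the length and the precursors (a is hsa-mir-378a), and the 2 main 3p forms of mir-378a together reach 93.4% in each table.

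Not every member was in every table. The table for 1 h listed 30 of the 44 entries, that for 22 h listed 29, and the remaining table listed all 44. The 15 entries missing at 22 h were rare, and 13 of them had a mean under 10 in the DOX 22 h and DOX 1 h table. No entry of the 22 h table with a restored mean was under 10, so that table holds no rare members. Reads in the 3 libraries were solved for 27 of the 29 entries at 22 h. The exceptions were the 2 main mir-378a 3p forms, for which 11 and 21 sets of reads satisfied both means. Without the unused columns, no difference is given for 93.4% of the family's signal, and the solved entries stand for 6.56% of the family's means at 22 h. A further row carried a mature name alone, hsa-miR-378d, and was not a member by the rule. It had 19 reads in DOX 22 h, 10 in DMSO 22 h and 20 in DOX 1 h.

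Several short members stood under more than 1 precursor. These were 7 sequences, and they made up 1.24%, 1.16% and 1.22% of the family's means. Their reads were not shared evenly: of a 16-nt 3p-like sequence under 4 precursors, mir-378d-2 held 40.5%, 38.8% and 42.6% and mir-378a held 19.9%, 23.1% and 18.7%. An 18-nt sequence under mir-378d-1 and mir-378d-2 was split closer to evenly, with 50.1%, 52.8% and 51.0% under mir-378d-1. The precursor of such a sequence cannot be told from its letters, so such sequences were summed over precursors below. Ratios by precursor and by entry are also given, and these follow the listing in the tables. All solved entries of mir-378d-1, and all solved 3p entries of mir-378a, are sequences that also stand under other precursors.

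DOX and DMSO at 1 h could not be compared for miR-378 from recovered reads. The means used from that table cover both groups, and no pair of coefficients searched, up to 900, gave them as whole reads of 2 libraries. Only pairs of similar coefficients were searched, so more unequal libraries are not excluded. The level of the family there, 1.90% of the table, lay beside 1.91% at 22 h. Whether DOX changed miR-378 within the first hour was not tested.

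After 22 h, the solved miR-378 sequences had more reads in the DOX library than in the DMSO library, in the 5p arm, in the 3p-like sequences and under most precursors. This direction holds only under the library names used here, and the study lists a mir-378c sequence in the opposite direction, as given above. All library values here are reads scaled to the depth of the DOX 22 h library. The 5p arm, whose 3 sequences in this table were all solved, had 2806 reads in DOX 22 h and 2240 scaled reads in DMSO 22 h. The log2 ratio was 0.32 (95% interval 0.24 to 0.41), or 1.25-fold. The solved 3p-like sequences, of which 3185 reads in DOX 22 h stood under mir-378c, summed to 4385 and 3285. Their log2 ratio was 0.42 (0.35 to 0.48), or 1.33-fold. Both intervals lie above 0, and both differences lie under the study's fold limit of 0.8 on the log2 scale.

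The most abundant solved sequences showed this difference by themselves. The 20-nt 5p form had 2417 reads in DOX 22 h and 1936 in DMSO 22 h, a log2 ratio of 0.32 (0.23 to 0.41). The 18-nt mir-378c form had 2487 and 1927, a log2 ratio of 0.37 (0.28 to 0.46). Among all solved entries with at least 1000 reads over both libraries, 225 in number, the lower and upper quartiles of the log2 ratio were -0.24 and 0.14 and the median was -0.05. These miR-378 sequences, which are the 2 members of that depth, thus both lay above the upper quartile. With the names of the 22 h libraries exchanged, both would lie below the lower quartile.

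The precursors differed in size more than in direction. mir-378c summed to 3185 reads in DOX 22 h and 2424 in DMSO 22 h, a log2 ratio of 0.39 (0.31 to 0.47). mir-378d-1 had 381 and 304.7, a log2 ratio of 0.32 (0.09 to 0.55). mir-378d-2 had 604 and 368.8, a log2 ratio of 0.71 (0.52 to 0.91), the highest of the precursors with more than 1 solved entry. Its interval lies above that of mir-378c, although most of its sequences also stand under other precursors. The solved 3p entries of mir-378a, without its main forms, had 205 and 172.1 reads. Their log2 ratio of 0.25 (-0.06 to 0.56) was not distinguishable from 0 at this depth. For mir-378e, with 10 and 14.6 reads, the log2 ratio of -0.52 (-1.90 to 0.76) was not either.

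By entry, 24 of 27 members were higher in the DOX 22 h library, against 50.4% of all solved entries with at least 20 reads. With the names of the 22 h libraries exchanged, these 24 would be lower. The median log2 ratio of the 27 members was 0.54, and that of all 1216 entries was 0.00. A log2 ratio at or over 0.8 was reached by 8 of the 27, where 10.4% of all entries reached it. A ratio at or under -0.8 was found in 0 members and in 7.24% of all entries. Of the 8, 6 had under 100 reads over both libraries. With at least 100 reads, 2 of 16 members were at or over 0.8, against 3.61% of 664 entries, and in both directions 52 of the 664 were past the limit. In this range the medians were 0.37 and -0.02. These 2 were the 18-nt 5p form (74 and 39.4 reads, log2 ratio 0.90, 0.31 to 1.53) and the earlier-starting 20-nt 3p-like form under mir-378c, with 1.13 (0.54 to 1.77). The latter sequence also stands under mir-378a with 0.54 (0.04 to 1.05), and its sum over both, 0.79 (0.42 to 1.19), lies under the limit. Summed over precursors, 14 of 15 sequences were higher in DOX 22 h, with a median of 0.46. An interval above 0 was found for 12 of the 15 and for 21.3% of all 1027 solved sequences, and an interval below 0 for 0 of the 15 and 19.9% of all. Members share letters and the same libraries, so these counts describe the libraries and are not replicates.

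**Figure D2:**
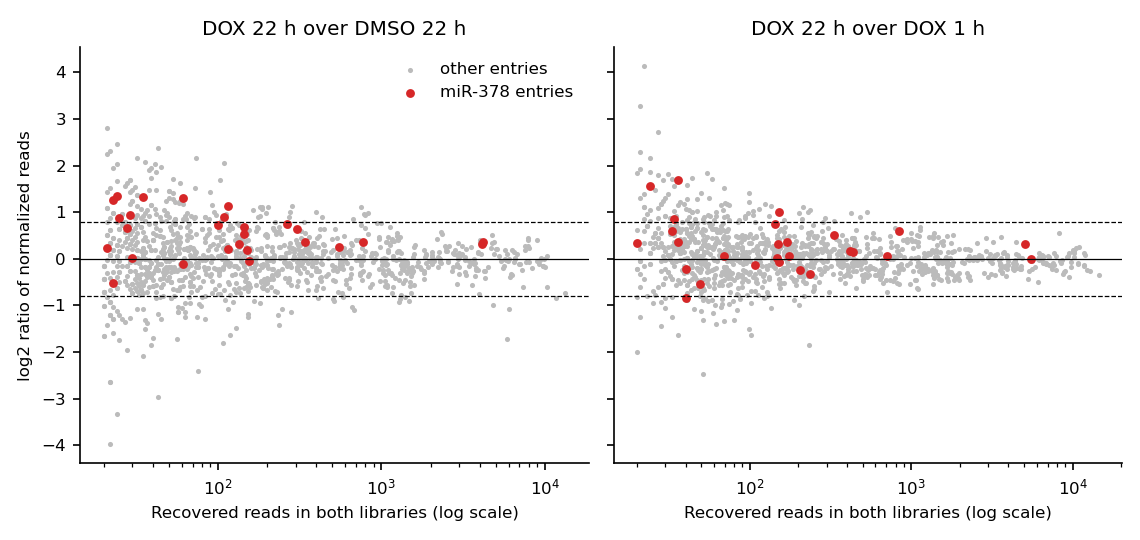
Log2 ratio of normalized reads of DOX 22 h over DMSO 22 h (left) and over DOX 1 h (right) against the reads in both libraries (log axis), for solved entries with at least 20 reads. Each point is 1 entry, red points are the 27 miR-378 entries and dashed lines mark 0.8 and -0.8; on the left, 24 of the 27 lie above 0.

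Between DOX 22 h and DOX 1 h, the solved 3p-like sequences had more reads at 22 h, and the 5p arm had nearly equal scaled reads. The 5p arm had 2806 reads at 22 h and 2774 scaled reads at 1 h, a log2 ratio of 0.02 (-0.06 to 0.09). No difference in the 5p arm was detectable at this depth. The solved 3p-like sequences had 4385 and 3553, a log2 ratio of 0.30 (0.24 to 0.36), or 1.23-fold. This is no comparison of the arms of 1 hairpin, since most solved 3p-like reads were listed under mir-378c and the main mir-378a forms were not solved. Within mir-378a, the solved 3p entries had a log2 ratio of 0.10 (-0.17 to 0.37), which overlaps that of its 5p arm. The DOX 22 h library is the same in this and the previous comparison.

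The 3p-like sequences were not uniform in this comparison. The 18-nt mir-378c form had 2487 reads at 22 h and 1993 at 1 h, a log2 ratio of 0.32 (0.24 to 0.40). The 19-nt mir-378c form with G19A had 457 and 301.8, a log2 ratio of 0.60 (0.40 to 0.80). The 16-nt sequence under 4 precursors had 412 and 280.8, a log2 ratio of 0.55 (0.35 to 0.76). Others with the usual start were closer to 0, with 0.16 (-0.04 to 0.35) for the 18-nt sequence under mir-378d-1 and mir-378d-2 and -0.06 (-0.54 to 0.42) for a 19-nt sequence under mir-378d-2. By precursor, the log2 ratio was 0.35 (0.27 to 0.42) for mir-378c, 0.25 (0.09 to 0.41) for mir-378d-2, 0.16 (-0.04 to 0.36) for mir-378d-1 and 0.10 (-0.17 to 0.37) for the solved 3p entries of mir-378a. Only the first 2 of these intervals exclude 0.

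By entry, 20 of 27 members were higher at 22 h, where 53.9% of 1190 entries were. The median was 0.17 over the members and 0.04 over all entries. A log2 ratio at or over 0.8 was found in 4 members (8.15% of all entries) and at or under -0.8 in 1 (3.7% of all entries). Of these 5, 4 had under 100 reads. With at least 100 reads, 1 of 17 members was at or over 0.8, against 2.59% of 695 entries, and in both directions 26 of the 695 were past the limit. That was the 16-nt sequence under mir-378c, with a log2 ratio of 1.01, against 0.55 when summed over its 4 precursors. Entries had to be listed at 22 h as well, so rare ones were chosen in part by their DOX 22 h reads. Summed over precursors, 12 of 15 sequences were higher at 22 h. An interval above 0 was found for 6 of them and for 18.7% of all 1003 solved sequences, and an interval below 0 for 1 of them and for 17% of all.

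**Figure D3:**
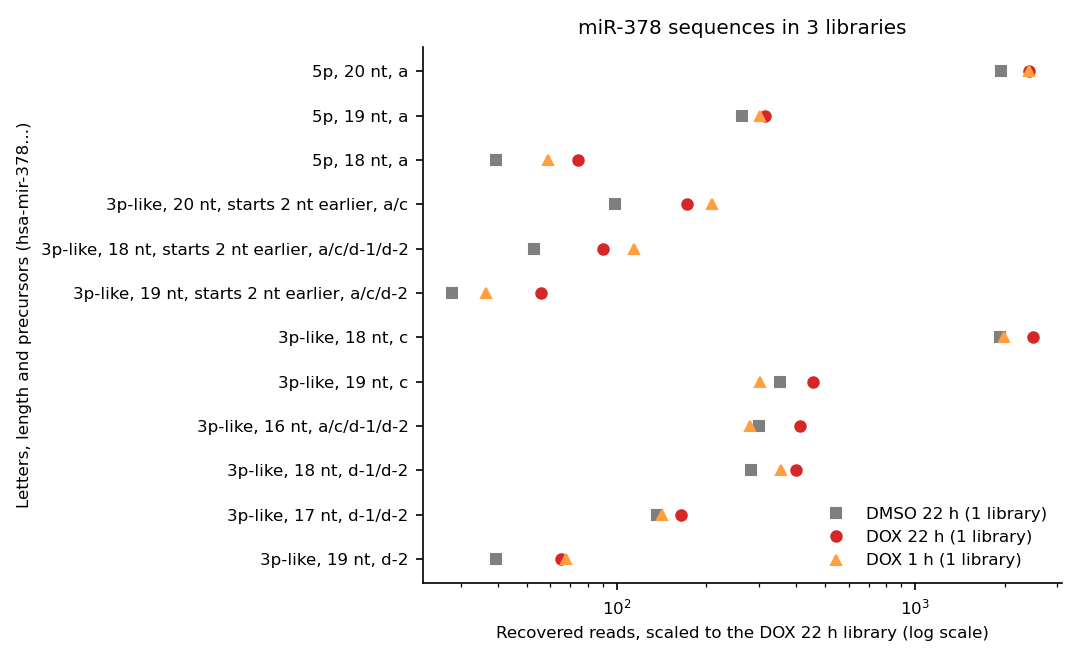
Recovered reads of the miR-378 sequences with at least 100 reads over the 3 libraries, scaled to the DOX 22 h library (log axis). Each row is 1 sequence summed over the precursors named, each symbol is 1 library, and in all 12 rows the DOX 22 h library lies above the DMSO 22 h library.

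The start of the 3p-like sequences differed among the libraries. Sequences that begin 2 nt earlier, and so hold the whole seed, had 318 reads in DOX 22 h, 179.9 in DMSO 22 h and 360.1 in DOX 1 h. Those with the usual start had 4067, 3105 and 3193, without the 2 main mir-378a forms. The log2 ratio of DOX 22 h over DMSO 22 h was 0.82 (0.54 to 1.10) for the earlier start and 0.39 (0.32 to 0.46) for the usual start. The earlier starts include the mir-378c sequence that the study lists as lower with DOX at 22 h. Over DOX 1 h the log2 ratios were -0.18 (-0.39 to 0.03) for the earlier start and 0.35 (0.29 to 0.41) for the usual start. In both comparisons these intervals do not overlap. By sequence, the earlier starts over DOX 1 h were at -0.28 (-0.57 to -0.00) for the 20-nt, 0.61 (0.03 to 1.21) for the 19-nt and -0.34 (-0.74 to 0.04) for the 18-nt form.

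As a share of the solved 3p-like reads, which needs no scaling, the earlier start made up 7.25% (6.50 to 8.06) in DOX 22 h. It was 5.48% (4.68 to 6.37) in DMSO 22 h and 10.1% (9.28 to 11.0) in DOX 1 h. The 3 intervals do not overlap, and under the library names used here DMSO 22 h was lowest and DOX 1 h highest. With the names of the 22 h libraries exchanged, DOX 22 h would be lowest. The 20-nt sequence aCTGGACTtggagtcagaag gave most of these reads, with 172, 99.0 and 209.2 scaled reads in the same order. In the 5p arm, the 20-nt form took 86.1% (84.8 to 87.4) of the arm in DOX 22 h, 86.4% (84.9 to 87.9) in DMSO 22 h and 87.0% (85.8 to 88.0) in DOX 1 h, and these intervals overlap. The 18-nt form took 2.64% (2.08 to 3.30), 1.76% (1.23 to 2.44) and 2.13% (1.68 to 2.66) in the same order, with overlapping intervals as well.

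**Figure D4:**
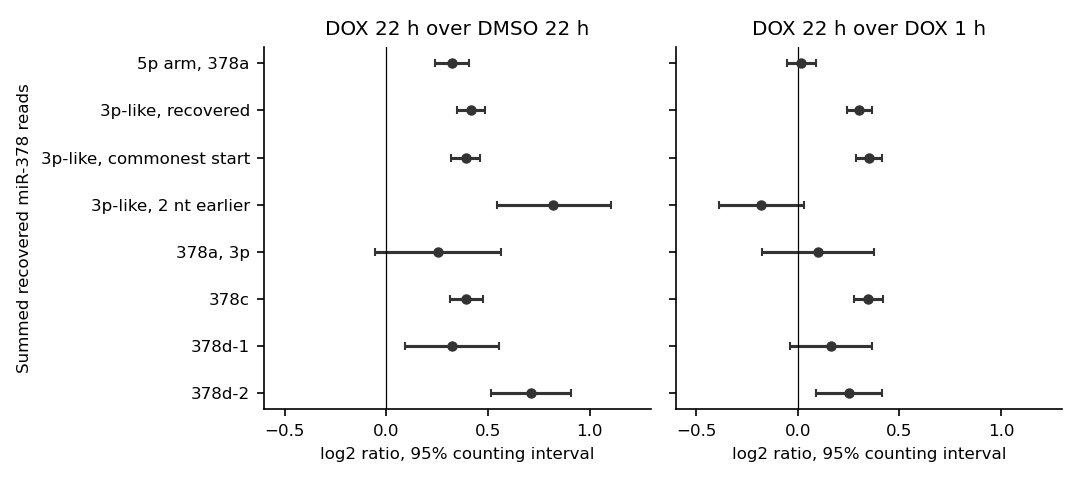
Log2 ratios of summed recovered miR-378 reads with exact 95% counting intervals, for DOX 22 h over DMSO 22 h (left) and over DOX 1 h (right), with 1 library a side. The 5p arm lies at 0.32 on the left and 0.02 on the right, and the earlier 3p-like start at 0.82 and -0.18.

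Other miRNAs of muscle and metabolism were set beside miR-378. Over the 91 solved entries of 10 muscle precursors, the median log2 ratio of DOX 22 h over DMSO 22 h was 0.12, with 13 entries at or over 0.8 and 4 at or under -0.8. Their summed reads went the other way, with 22662 in DOX 22 h and 25329 in DMSO 22 h. Over 49 entries of 11 metabolic precursors (among them mir-33a, mir-210, mir-23a, mir-27b, mir-103a and mir-107), the median was 0.15, with 9 and 7 entries past the limits, and the sums were 32256 and 36241. The miR-378 sums were higher in DOX 22 h, with 7191 and 5525 over its 27 solved entries. All these sums hold solved entries only, and for miR-378 they leave out the main mir-378a forms. At 22 h, the summed means over all entries were 1680870 for the muscle list and 1172830 for the metabolic list. The solved sums are a small part of these and do not give the direction of the full lists or of the family. Over DOX 1 h, the medians of the muscle and metabolic lists were 0.12 and 0.19. The muscle list holds all 7 cardiac markers, and mir-143 stands in the metabolic and smooth muscle lists.

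Among the marker lists, solved reads in DOX 22 h, DMSO 22 h and DOX 1 h were 20707, 23265 and 19783 for cardiac muscle. They were 26155, 26520 and 24832 for the endothelial mir-126 and 11224, 13717 and 11476 for smooth muscle. Fibroblast markers had 10267, 10141 and 10412. The red cell list had 127, 112.4 and 141.6 and the leucocyte list 288, 319.4 and 213.1. By entry, the median log2 ratio of DOX 22 h over DMSO 22 h was 0.12 for cardiac muscle, 0.05 for the endothelial, 0.30 for the smooth muscle and -0.01 for the fibroblast list. It was 0.95 over 3 red cell entries, 2 of them at or over 0.8, and -0.08 over 9 leucocyte entries. For cardiac and smooth muscle, the sum was thus lower in DOX 22 h while the median entry was higher. The solved entries leave out the most abundant sequences of these lists, and the part of cell composition in the miR-378 difference was not tested.

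The arms most like the 3p arm of mir-378a over both log2 ratios were sought among 179 arms of other precursors with at least 100 reads in each library. The mir-378a arm was at 0.25 and 0.10 from its 4 solved entries of 8, with 205, 153 and 246 unscaled reads in DOX 22 h, DMSO 22 h and DOX 1 h. By Euclidean distance, the 5 nearest outside the family were arms of mir-381 (0.26 and 0.13), mir-22 (0.23 and 0.13) and mir-136 (0.29 and 0.06). The others were mir-1301 (0.25 and 0.03) and mir-93 (0.25 and 0.20). The distances of these 5 ran from 0.030 to 0.096. Family members were not listed among them, and mir-378d-1 stood at 0.32 and 0.16, nearer than mir-93. Because the main mir-378a forms could not be solved and the solved entries also stand under other precursors, this likeness describes rare shared sequences and not mir-378a itself.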

How the data were processed

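Small RNA was sequenced from 12 libraries in 4 groups, with groups taken from the sample labels. Per the labels, reads were aligned to human sequences (build hg19), and quality was read with FastQC and MultiQC. Versions of these are not given in the sources used here. The authors deposited 3 tables of DESeq2 means, a signal of reads divided by size factors and averaged over both sides. The other columns hold the authors' fold changes, standard errors, p-values and the 2 side means that follow from them, and none was used. The means at 1 h and 22 h had lost their decimal mark, and each power of 10 was restored by matching the entry in the DOX 22 h and DOX 1 h table, which kept its decimals. For miR-378 the restored means at 1 h lay within 0.15 of that table on the log10 scale, and over all entries within 0.498. The nearest power of 10 was always taken, which bounds this distance, so the upper value is no check. Entries near it may hold a wrong power of 10, and the totals, shares and ranks at 1 h rest on these means.

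The recovered reads solve 22 h means as 731 and 822 parts, and those of the DOX 22 h and DOX 1 h table as 9 and 7 parts, of 2 libraries. They came out whole within 6.56e-07 and 6.98e-09. Other assignments of the shared library left 975 or more entries unsolved. The method was tested on simulated data. Log2 ratios had 0.5 normalized read added. Ratios were described from 20 reads over both libraries, and 0.8 was the fold limit. Arms were split at gaps over 15 bases. The 1 library a side gave no test. The members and lists were chosen with earlier results of these data known. The genes named were all family entries, the fixed lists of muscle, metabolic and marker miRNAs, and the 5 arms outside the family nearest to mir-378a 3p. Alternatives were other added reads, scalings, filters and subsets. The 1 h table was used for levels only. Python 3.11.15, numpy 2.4.6 and scipy 1.17.1 were used.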

Additional observations from a re-analysis of the deposited data

How the results depend on the processing

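Of 48 alternatives, of miR-378 values and of counts over all entries, 35 left the value much as it was and 13 moved it. Ratios were held to their counting intervals and counts to 1.5 times. None of them reversed a direction, and an exchange of library names was not among them. With entries of hsa-mir-378a alone, the solved 3p log2 ratio was 0.25 over DMSO 22 h and 0.10 over DOX 1 h. This keeps 205 of the 4385 DOX 22 h reads. Without mir-1 and mir-143, the family made up 3.15%, 3.28% and 3.37% of the 3 tables. With a fold limit of 1 on the log2 scale, 133 entries passed at 22 h in place of 215, and 82 in place of 141 over DOX 1 h. The miR-378 entries past it were 5 in place of 8 and 3 in place of 5. With at least 100 reads, 52 and 26 entries passed, of which 2 and 1 were miR-378. Centring on the median of entries with at least 100 reads was chosen after seeing the data. It gave 0.35 for the 5p arm and 0.44 for the solved 3p-like sequences over DMSO 22 h.

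No paired analysis was possible because the tables hold no column per replicate, and only replicate 1 was recovered in the tables with DOX 22 h. For the same reason, leaving out libraries could not be run. Depth limits the earlier-starting and mir-378d forms, and the 2 main mir-378a forms have levels only.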
